A study of Mus musculus with 2 samples.

Results

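The translation initiation and elongation factor genes were examined in total RNA of CH12.LX, an established mouse B cell lymphoma line used as a model of activated B cells. They were the protein-coding genes of the GENCODE mouse annotation whose symbols begin with Eif1 to Eif6, Eef1 or Eef2. Eif2s3x, Eif2s3y and the eIF2 kinase genes Eif2ak1 to Eif2ak4 were left out by that rule. This gave 61 genes of the 43346 listed. Another matching gene, Eef1akmt4, had no row in the table used and was not analysed here.

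The study sequenced 2 libraries, named biological replicates 1 and 2, from a line that the labels trace to a female mouse of strain B10.H-2aH-4bp/Wts. No genotype, treatment or time distinguishes them, so there was no contrast, and the only comparison was library against library. Each replicate has its own biosample record, but nothing else says that the cultures were separate, and the spread between them may be technical. The line is a lymphoma grown in culture, so its levels are not those of a normal B cell. Depth was 49278383 expected counts in replicate 1 and 55950529 in replicate 2. Protein-coding genes held 24.4% and 24.3% of TPM, the deposited level per length of transcript, so members would read higher if TPM were rescaled to protein-coding genes. The labelled cell type was checked on B cell markers, and 6 of 6 were at 1 TPM or more, from Pax5 at 6.09 and 6.99 TPM to Cd74 at 496 and 516 TPM. None of 5 myeloid, 3 erythroid or 3 fibroblast markers reached 1 TPM in both libraries. Of 5 T cell markers, Cd3d (1.14 and 1.45 TPM) and Cd3g (2.69 and 3.04 TPM) did, while Cd3e had 0 counts.

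Protein synthesis starts when eIF2 brings the initiator tRNA to the small ribosomal subunit, with eIF1, eIF1A, eIF3 and eIF5 bound there. The cap-binding protein eIF4E, the scaffold eIF4G and the helicase eIF4A, together called eIF4F, recruit this complex to the mRNA, and the 4E-BP proteins block eIF4E by taking the place of eIF4G. The exchange factor eIF2B recharges eIF2 with GTP. During elongation eEF1A delivers aminoacyl-tRNA, the eEF1B complex recharges eEF1A, and eEF2 moves the ribosome along the mRNA. B cells raise protein synthesis strongly when activated, and the kinase mTORC1 and the factor MYC are known regulators of this machinery.

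Nearly the whole set was present. Detection was set at a minimum of 1 TPM in both libraries, and 56 of 61 members met it. A minimum of 10 TPM was met by 46 and a minimum of 100 TPM by 11. The 61 members had a median of 41.7 TPM in replicate 1 and of 32.9 TPM in replicate 2, and they held 3.54% ± 0.177 of all protein-coding TPM (SD, n = 2). By mean TPM, 2 members were among the 100 highest protein-coding genes and 32 among the 1000 highest. Eef1a1 ranked first of all protein-coding genes. The other 5 were Eif4ebp3, Eef1akmt3 and the paralogs Eef1a2, Eif4e1b and Eif5a2, of which the last 3 were listed at 0 TPM.

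**Figure D1:**
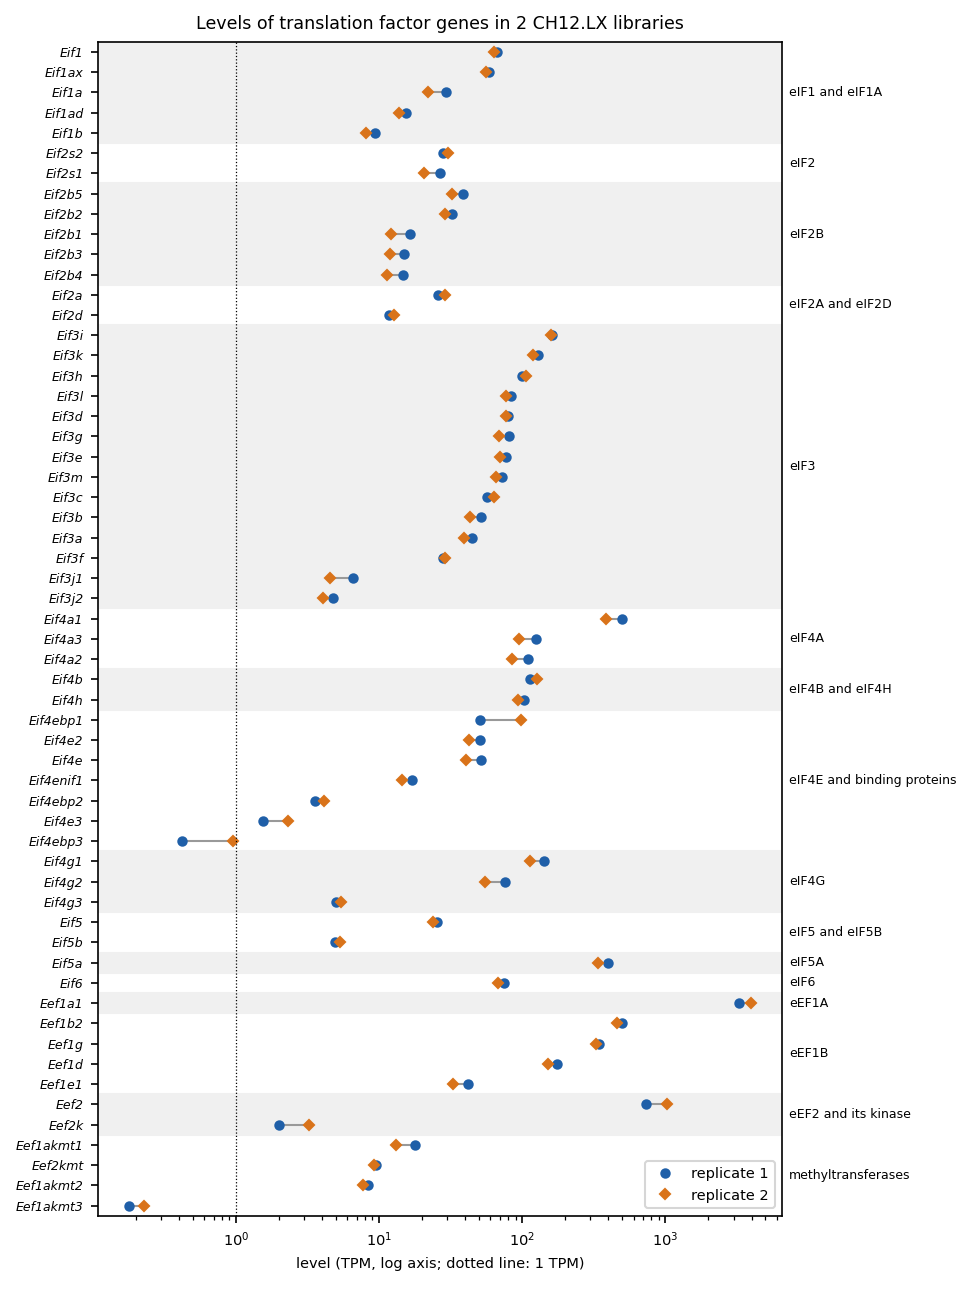
Level in TPM (log axis) of the 58 members with any TPM, in replicate 1 (circles) and replicate 2 (diamonds), grouped by complex and joined by a line. Eef1a1 and Eef2 lie at the right, Eif4ebp1 shows a wide gap for an abundant gene, and Eif4ebp3 and Eef1akmt3 lie left of the dotted line at 1 TPM.

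Library against library, counts were scaled by TMM and compared by a two-sided exact binomial test, whose error is that of counting alone, so it speaks of these libraries and of no condition. With an adjusted p under 0.05 and a ratio of at least 2, 4.77% of the 15438 genes tested were called in either direction and 3.71% were called higher in replicate 2. Of 58 members tested, 1 was called, Eif4ebp3, which was higher. At a ratio of at least 1.5, where 10.9% of all genes were called, 8.14% higher and 2.77% lower, 3 members were called higher and 0 lower. These were Eif4ebp1, Eif4e3 and Eif4ebp3, all of the eIF4E and 4E-BP group. With no ratio criterion 50.4% of genes passed, 3898 higher and 3881 lower in replicate 2. Of the members 51 did, 14 higher and 37 lower. Abundant genes passed more often and mostly as lower. Among 3300 protein-coding genes averaging at least 10 TPM, 2624 passed, 828 higher and 1796 lower. Among the 46 members that abundant, 43 passed, 10 higher and 33 lower. The members' ratios were therefore small: 55 differed by less than 1.5-fold by counts, but most differences were larger than counting error.

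Most members read slightly lower in replicate 2. By TPM, 41 of the 56 members with a mean of at least 1 TPM were lower and 15 higher, with a median log2 ratio of -0.14. Over all 9851 genes at that level the median was -0.04, with 5522 lower and 4285 higher. Abundant genes in general leaned the same way: of 3300 protein-coding genes with a mean of at least 10 TPM, 67.4% were lower, with a median of -0.11, and 36 of 46 members at that level were lower, with a median of -0.16. Every measured member of eIF2B, eIF4A, eIF1 and eIF1A, and eEF1B was lower in TPM, although Eif4a2 turned with coding forms alone. Eef1a1 and Eef2 were higher.

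**Figure D2:**
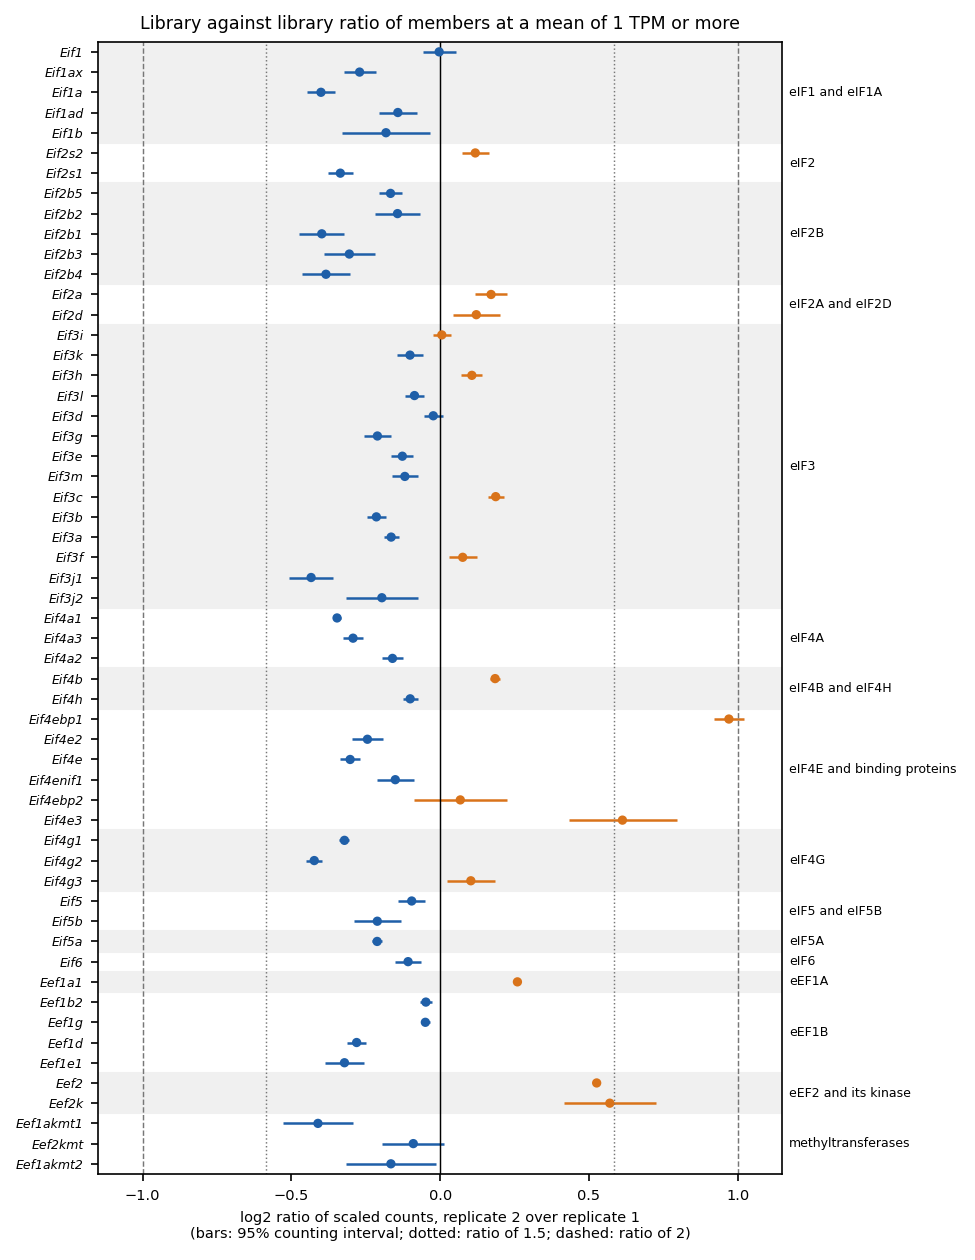
Log2 ratio of TMM-scaled counts, replicate 2 over replicate 1, with 95% counting intervals, for members with a mean of at least 1 TPM. Most points lie left of 0, and Eif4ebp1 (0.97), Eif4e3 (0.61), Eef2k (0.57) and Eef2 (0.53) lie farthest to the right.

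The factors that guard start codon choice, eIF1 and eIF1A, are coded by paralogous pairs. Eif1 was at 66.6 and 63.4 TPM and its paralog Eif1b at 9.37 and 8.17 TPM in replicates 1 and 2. Eif1 was thus 7.10 and 7.76 times as high as Eif1b over all forms, and 3.84 and 4.24 times as high over coding forms. Eif1ax, the X-linked gene for eIF1A, was at 59.0 and 55.9 TPM, and Eif1a was at 29.4 and 22.1 TPM. Eif1ad, which codes for a protein with an eIF1A-like domain, was at 15.5 and 13.8 TPM.

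The order of the eIF1A genes turned when only protein-coding transcripts were summed. Most Eif1ax TPM belonged to Eif1ax-202, a retained-intron form of 416 bases in 2 exons, with 51.0 and 49.8 TPM or 86.5% and 89.0% of the gene. The coding form Eif1ax-201, with 7 exons, was at 7.99 and 6.14 TPM, below Eif1a in both libraries. By expected counts the retained-intron form held only 24.7% and 28.9%, because TPM divides by a short length. What sets the short form apart are 94 bases of intron after its last shared exon (mm10 chrX:159376465-159376558, plus strand), shown here because reads over them assign RNA to that form. Capitals mark the first intron bases:
Eif1ax-202: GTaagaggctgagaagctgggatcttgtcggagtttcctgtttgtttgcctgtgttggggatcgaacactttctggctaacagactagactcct

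Of the genes for eIF2, which carries the initiator tRNA, the 2 in the set were at similar levels. The other eIF2 subunit genes, Eif2s3x and Eif2s3y, were left out by the rule. Eif2s1, the alpha subunit that stress kinases phosphorylate, was at 26.5 and 20.6 TPM, and Eif2s2, the beta subunit, was at 28.1 and 30.4 TPM. They moved in opposite directions between the libraries, with log2 count ratios of -0.34 and 0.12. All 5 subunits of eIF2B were lower in replicate 2. Their median log2 TPM ratio was -0.33. All 5 passed the test with no ratio criterion, beside 54.4% of protein-coding genes averaging at least 10 TPM that passed it as lower. Eif2b5, the catalytic epsilon subunit, was the highest at 38.5 and 32.4 TPM, and Eif2b4, the delta subunit, the lowest at 14.7 and 11.3 TPM. For Eif2b1, the alpha subunit, 16.4 and 12.1 TPM gave the lowest log2 count ratio of the complex, -0.40 (95% counting interval -0.47 to -0.32). Eif2a and Eif2d, alternative carriers of initiator tRNA, were at 26.0 and 28.8 TPM and at 11.8 and 12.7 TPM, both higher in replicate 2.

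The eIF3 complex is the largest initiation factor and binds the small subunit. Its genes were not at equal levels. Over the 12 core and peripheral subunits without eIF3j, Eif3i was the highest at 162 and 160.0 TPM and Eif3f the lowest at 28.0 and 28.8 TPM, a span of 5.80-fold and 5.56-fold. Next after Eif3i came Eif3k (130 and 119.9 TPM) and Eif3h (99.7 and 105.8 TPM), and the ranges of these neighbours over the libraries did not overlap. Eif3l, Eif3d, Eif3g, Eif3e and Eif3m lay between 65.3 and 83.6 TPM, and each overlapped the next. Eif3c (56.6 and 63.2 TPM) was the next lower subunit, followed by Eif3b (51.3 and 43.4 TPM) and Eif3a (44.9 and 39.3 TPM), which overlapped. Eif3c, Eif3f and Eif3h were higher in replicate 2 and the other 9 lower, with log2 TPM ratios from -0.24 for Eif3b to 0.16 for Eif3c. Counts scaled by TMM placed Eif3i slightly on the higher side instead, at 0.01, and its test did not pass.

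**Figure D3:**
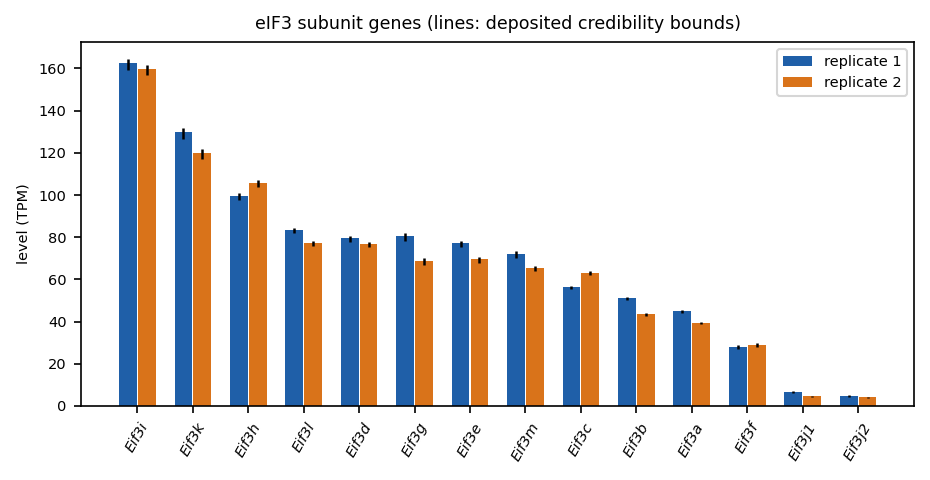
Level in TPM of the 14 eIF3 subunit genes in replicate 1 (blue) and replicate 2 (orange), ordered by mean, with the deposited credibility bounds as lines. Levels step down from Eif3i at 162 TPM in replicate 1 to Eif3f at 28.0 TPM, with Eif3j1 and Eif3j2 far below.

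Subunit eIF3j, which binds loosely, is coded by 2 genes in mouse. Eif3j1 was at 6.54 and 4.57 TPM and Eif3j2 at 4.76 and 4.08 TPM. Of the 50-base words in the annotated Eif3j2 transcripts, 91.8% occur also in transcripts of other genes, and of Eif3j1 words 36.9%. The division of reads between them is therefore uncertain.

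The helicase eIF4A unwinds the mRNA leader, and its main gene Eif4a1 was the most abundant initiation factor gene measured. Eif4a1 (chromosome 11, 69666936 to 69672423, minus strand) was at 499 and 387 TPM, with a log2 count ratio of -0.35 (95% counting interval -0.36 to -0.33). Eif4a1 was 4.52 and 4.58 times as high as its paralog Eif4a2 (110.3 and 84.4 TPM), and 21.2 and 13.3 times as high by coding forms. Eif4a3, a helicase of the exon junction complex, was at 124 and 94.3 TPM. Beside 54.4% of protein-coding genes averaging at least 10 TPM, all 3 passed the test with no ratio criterion as lower in replicate 2. The cofactors did not follow them together: Eif4b was higher in replicate 2 (114 and 127 TPM) and Eif4h lower (102 and 93.7 TPM).

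Eif4a2 changed direction when its forms were separated. Its protein-coding forms summed to 22.2 and 27.6 TPM in replicates 1 and 2, a log2 ratio of 0.31, against -0.39 for the whole gene. Noncoding forms held 79.9% and 67.4% of the gene's TPM, and 55.9% and 45.0% of its expected counts. Retained-intron forms with an annotated small nucleolar RNA inside an exon were at 54.5 and 29.8 TPM, or 49.4% and 35.3% of the gene. Among coding forms, the main one, Eif4a2-202, was at 22.1 and 19.6 TPM. Eif4a2-203 was listed at 0 and 5.44 TPM and Eif4a2-224 at 0 and 2.37 TPM, so the higher coding sum came from forms listed at 0 in replicate 1. Whether reads of the small RNAs or the division of reads among forms set these values was not tested.

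**Figure D4:**
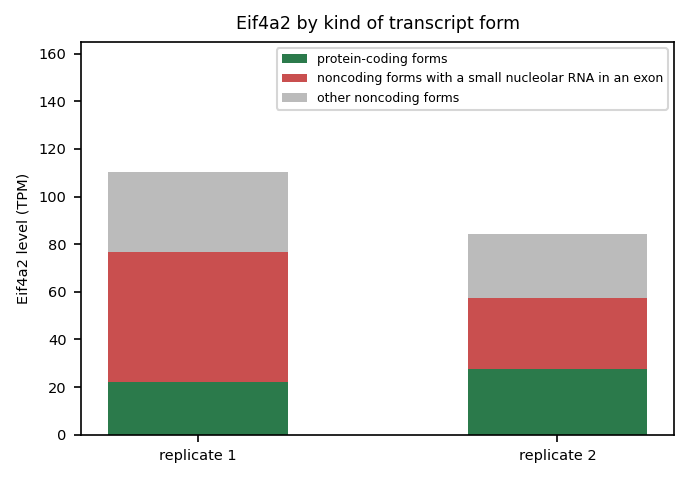
Eif4a2 level in TPM in each library, stacked by kind of transcript form. The part from noncoding forms with a small nucleolar RNA in an exon shrinks from 54.5 to 29.8 TPM, while the coding part goes from 22.2 to 27.6 TPM.

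Eif4a1 also has a near-identical processed copy that was measured apart from it. Eif4a-ps4, on chromosome 1, matched the coding part of Eif4a1 in 1217 of 1218 aligned bases. It held 3935 and 4854 expected counts, 4.50% and 6.58% of those of Eif4a1. The stretches below hold the only mismatch, in capitals, in 100 bases of each (mm10, Eif4a1 from spliced exons on chromosome 11, minus strand, between 69668685 and 69669108, and the copy at chr1:60704415-60704514, plus strand). They are shown because reads that do not cover that base cannot be told apart within the aligned part:
Eif4a1: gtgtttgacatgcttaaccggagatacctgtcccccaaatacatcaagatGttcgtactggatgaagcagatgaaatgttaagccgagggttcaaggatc
Eif4a-ps4: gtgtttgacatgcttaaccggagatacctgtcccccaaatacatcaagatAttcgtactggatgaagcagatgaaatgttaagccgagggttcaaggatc

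The cap-binding protein eIF4E and its inhibitor 4E-BP1 are coded by Eif4e and Eif4ebp1. Eif4e was at 51.2 and 40.8 TPM. Its inhibitor gene Eif4ebp1 (chromosome 8, 27260329 to 27276674) was at 50.6 and 97.9 TPM. The log2 count ratio of Eif4ebp1 was 0.97 (95% counting interval 0.92 to 1.02), and its deposited credibility bounds, 48.9 to 51.8 and 95.7 to 99.6 TPM, did not overlap. The ratio of Eif4ebp1 to Eif4e therefore went from 0.99 to 2.40. The inhibitor and its target were level in replicate 1, and the inhibitor was higher in replicate 2.

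The other 4E-BP genes were far below Eif4ebp1. Eif4ebp2 was at 3.55 and 4.14 TPM, and its counts did not differ past the test. Eif4ebp3 was at 0.42 and 0.95 TPM, from 27 and 66 expected counts, with a log2 count ratio of 1.19 and an adjusted p of 0.00072 in the exact binomial test. Its deposited credibility bounds, 0.14 to 0.71 and 0.64 to 1.25 TPM, overlapped. Of its 50-base words, 65.5% occur in another annotated gene, so its value is uncertain.

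Of the paralogs of the cap-binding protein, Eif4e2, which codes for a form that binds the cap but not eIF4G, was as high as Eif4e, at 50.6 and 42.3 TPM. Eif4e3 was at 1.55 and 2.33 TPM, with a log2 count ratio of 0.61 (95% counting interval 0.43 to 0.80). Eif4e1b, a germline paralog, had 0 counts in both libraries, and was listed at 0 TPM, with deposited credibility bounds of 0.057 to 0.245 and 0.054 to 0.228 TPM. Eif4enif1, the eIF4E transporter, was at 17.1 and 14.5 TPM.

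Among the scaffolds, Eif4g1 was at 142 and 113 TPM and Eif4g3 at 4.98 and 5.44 TPM, so Eif4g1 was 28.5 and 20.8 times as high. Eif4g2, which codes for a scaffold relative without an eIF4E site, was at 75.9 and 54.6 TPM, with a log2 count ratio of -0.42 (95% counting interval -0.45 to -0.40). The eIF4F genes together were far from equal in level, since Eif4a1 was 9.74 and 9.49 times as high as Eif4e and 3.52 and 3.42 times as high as Eif4g1, or 5.51 and 5.75 times by coding forms. Eif4g1 was split among forms: the coding forms Eif4g1-202 and Eif4g1-216 held 28.4% and 11.3% of its TPM in replicate 1 and 33.1% and 11.8% in replicate 2. Eif4g1-222, typed as subject to nonsense-mediated decay, held 24.1% and 26.6%, or 12.5% and 14.0% of expected counts.

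At subunit joining, Eif5, the GTPase-activating protein for eIF2, was at 25.6 and 23.7 TPM. Eif5b, the joining GTPase, read 4.90 and 5.38 TPM. Its direction depended on the scale, since the log2 TPM ratio was 0.13, the log2 count ratio was -0.21 and the coding forms gave -0.23. A short processed transcript, Eif5b-203, of 578 bases, held 32.8% and 43.2% of its TPM, but only 2.76% and 4.64% of its expected counts. The level of Eif5b also moved 1.74-fold across the annotation releases, the only member past 1.5-fold, from 3.19 and 2.73 TPM with release M2. Eif5a, which promotes peptide bond formation at difficult sites and carries hypusine, was at 399 and 339.7 TPM. Its paralog Eif5a2 was listed at 0 TPM, with 2 and 0 counts. Eif6, which keeps free large subunits apart from small ones, was at 74.9 and 68.0 TPM.

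Elongation factor genes held the highest levels of the set. Eef1a1 (chromosome 9, 78478449 to 78489151, minus strand) was at 3284 and 3969 TPM, with a log2 count ratio of 0.26. Eef1a2, its muscle and neuron paralog, had 0 counts in both libraries, which allows up to 0.014 and 0.013 TPM at 3 counts. Eef2 (chromosome 10, 81176631 to 81182498, plus strand) was at 728 and 1029.8 TPM, with a log2 count ratio of 0.53 (95% counting interval 0.52 to 0.53). Both were higher in replicate 2, by less than 1.5-fold. Eef2k, the kinase that inhibits eEF2, was at 2.00 and 3.24 TPM, with a log2 count ratio of 0.57 (95% counting interval 0.42 to 0.73). Its deposited credibility bounds, 1.78 to 3.15 and 3.003 to 4.20 TPM, overlapped, and its coding forms gave a log2 ratio of 0.32.

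The genes of the exchange complex eEF1B were slightly lower in replicate 2 instead. Eef1b2 was at 496 and 463 TPM, Eef1g, its scaffold, at 342 and 327 TPM, and Eef1d at 176 and 152 TPM. Eef1e1, which codes for a protein of the multisynthetase complex and is grouped here by its name, was at 41.7 and 32.9 TPM. All 4 were lower in replicate 2. Log2 TPM ratios were -0.10 for Eef1b2, -0.06 for Eef1g, -0.21 for Eef1d and -0.34 for Eef1e1, with a median of -0.16. The median over protein-coding genes at 10 TPM or more was -0.11, so the eEF1B genes did not stand apart from genes at that level. The ratio of Eef1a1 to Eef1b2 was 6.62 in replicate 1 and 8.58 in replicate 2, or 11.2 and 15.9 by coding forms. Eef1d was split between the coding forms Eef1d-207 (58.0% and 59.1%) and Eef1d-218 (20.1% and 14.9%).

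The methyltransferase genes that act on eEF1A or eEF2 were below the median of the members. Among protein-coding genes Eef1akmt1, Eef2kmt and Eef1akmt2 stood at percentiles 89.7, 83.8 and 81.7 by mean TPM, and Eef1akmt3 at 50.2. Eef1akmt1 was at 17.7 and 13.2 TPM, Eef2kmt at 9.53 and 9.26 TPM, Eef1akmt2 at 8.35 and 7.72 TPM and Eef1akmt3 at 0.18 and 0.23 TPM. Eef1akmt1 alone of the 4 passed the test with no ratio criterion, with a log2 count ratio of -0.41, beside 50.4% of all genes tested.

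Noncoding forms carried a large part of the TPM of several members. In total 20 transcripts that are not protein coding held at least 10% of a member in both libraries, in 16 members: 10 retained introns, 7 processed transcripts and 3 subject to nonsense-mediated decay. After Eif1ax and Eif4a2, the largest mean noncoding shares were those of Eif5b (53.4%), Eif2b2 (52.7%), Eef1b2 (52.4%) and Eif1 (45.7%). For Eef1b2 the coding forms summed to 251 and 206 TPM, and Eef1b2-205, typed as subject to nonsense-mediated decay, held 31.4% and 35.5% of the gene. Other genes had such shares too: 26.1% of members at 10 TPM or more had a noncoding share of at least 10%, against 32.3% of 3300 protein-coding genes at that level. With coding forms alone, 56 members were still at 1 TPM or more in both libraries, and the median over all 61 members was 28.6 TPM.

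**Figure D5:**
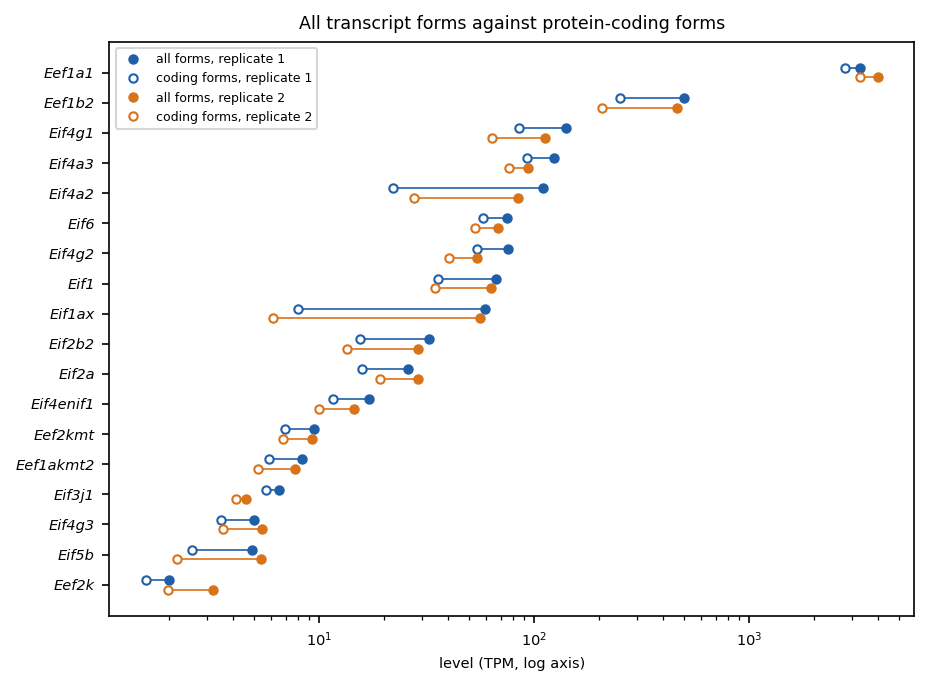
Level in TPM (log axis) summed over all transcript forms (filled) and over protein-coding forms (open), in both libraries, for the 18 members with a mean noncoding share of at least 10%. The gap is widest for Eif1ax, and the open points of Eif4a2 lie in the opposite order to its filled points.

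Several members carry small nucleolar RNA genes in their introns. Of 46 members at 10 TPM or more, 8 were such hosts (17.4%), against 3.30% of protein-coding genes at that level. The hosts were Eef1b2, Eef2, Eif3a, Eif4a1, Eif4a2, Eif4g1, Eif4g2 and Eif5. They hold 16 small nucleolar RNA genes, of which 7 had 0 counts in both libraries. The highest were Gm23262 in Eif4g2, with 8752 and 4019 expected counts, Gm25835 in Eif4a1, with 6698 and 5091, and Gm26447 in Eif4a2, with 5795 and 5515. These expected counts were lower in replicate 2 for all 3, as was the TPM of the host genes. By TPM, which for RNAs this short depends on a very small effective length, Gm25835 was instead higher in replicate 2, and Gm26447 was listed at 0.

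Promoter windows of RefSeq (assembly GRCm38.p6, 250 bases before to 50 after the start) matched 45 members. The E-box CACGTG, the sequence known to be bound by MYC with MAX, was searched on both strands. It occurred in 12 of 45 member genes (26.7%), against 8.09% of the 27025 genes with a searched window. Among genes at 10 TPM or more it occurred in 9 of 35 members (25.7%) and in 13.2% of 2620 genes. The GC box GGGCGG occurred in 75.6% of member genes, against 38.2% of all, but among genes at 10 TPM or more the shares were 77.1% and 69.9%. TATAAA occurred in 8.89% of member genes and 15.7% of all, but among genes at 10 TPM or more the shares were 11.4% and 8.36%. TGATGNAA, an ATF4-type element, occurred in 2.22% and 4.51%, and among genes at 10 TPM or more in 0% and 2.56%. These matches describe letters only and show no binding.

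The E-box windows of the eIF4F genes and of Eef2 are printed to show the motif in its setting, with the E-box in capitals. Starts are those of RefSeq and can differ from those of the measured genes. The Eif4e stretch lies inside the measured gene, downstream of the start of Eif4e-201 (138526179), which held 100% of its TPM. The Eif4g1 stretch lies after the first base of the gene (20668313) but before that of Eif4g1-202 (20672749). Which start the cells used was not tested. The first base of the motif was 64 bases before the start in Eif4e (chr3:138527157-138527256, plus strand), 54 in Eif4g1 (chr16:20672626-20672725, plus strand), 189 in Eif4a1 (chr11:69672560-69672659, minus strand) and 43 in Eef2 (chr10:81176531-81176630, plus strand):
Eif4e: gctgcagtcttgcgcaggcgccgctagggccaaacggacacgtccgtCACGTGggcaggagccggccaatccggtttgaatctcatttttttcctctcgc
Eif4g1: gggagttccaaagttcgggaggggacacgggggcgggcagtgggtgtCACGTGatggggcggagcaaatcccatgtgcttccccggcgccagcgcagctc
Eif4a1: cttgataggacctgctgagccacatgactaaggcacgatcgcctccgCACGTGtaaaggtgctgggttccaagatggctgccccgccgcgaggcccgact
Eef2: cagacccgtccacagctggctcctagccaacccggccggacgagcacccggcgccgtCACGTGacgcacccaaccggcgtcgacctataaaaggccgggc

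The genes printed above did not share a direction between the libraries, since Eif4e, Eif4g1 and Eif4a1 were lower in replicate 2 and Eef2 was higher. Of the other members with the motif, Eif1b, Eif3a, Eif3k, Eif4h and Eif5a were lower by TPM, and Eef2k and Eif3f were higher. Eif5a2 was listed at 0 TPM. Of protein-coding genes at 10 TPM or more, 67.4% were lower.

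Read sharing with copies elsewhere limits some values. The median member at 10 TPM or more shared 1.70% of its 50-base words with other genes, against 0.12% for protein-coding genes at that level, and 9 of 46 members (19.6%) shared at least 10%, against 16.2%. Eef1g shared 44.2% and Eef1a1 39.4%. Of the 18 annotated pseudogenes that share words with Eef1a1, 8 had a row in the table, and these held counts equal to 0.53% and 0.70% of its own.

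Genes that work beside these factors were followed as a list of 48, all of which matched, and 46 were detected. They covered termination and recycling, poly(A) binding, scanning helicases, mTORC1, the eIF2 and eIF4E kinases and the enzymes that modify eIF5A and eEF2. By TPM 33 were lower in replicate 2 and 13 higher, with a median log2 ratio of -0.17. Of all genes at 1 TPM or more, 56.1% were lower. At a ratio of at least 1.5, where 2.77% of all genes were called lower and 8.14% higher, 1 was called lower and 1 higher. Ddx3x, a helicase that helps scanning on structured leaders, was called lower, at 39.6 and 25.3 TPM. Ctif, a cap-binding complex partner, was called higher, but at only 0.01 and 0.03 TPM.

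Of 6 termination and recycling genes, all 5 detected were lower by TPM, beside 67.4% of protein-coding genes at 10 TPM or more. Among them were Abce1, which splits ribosomes, at 37.1 and 28.6 TPM, and Etf1, the stop codon reader, at 36.9 and 28.8 TPM. Gspt2, the paralog of the release factor gene Gspt1, had 0 counts. Pabpc1, the main poly(A)-binding protein, was the highest of the list, at 144 and 153 TPM. Of the mTORC1 genes, Larp1, which binds terminal oligopyrimidine mRNAs, was the highest at 25.5 and 22.5 TPM and Mlst8 the lowest at 2.29 and 1.54 TPM. All 4 eIF2 kinases were detected, from Eif2ak2 at 2.60 ± 0.311 TPM to Eif2ak3 at 8.94 ± 0.0778 TPM (mean ± SD, n = 2). The eIF4E kinase Mknk2 was at 25.9 and 21.1 TPM and Mknk1 at 8.43 and 9.40 TPM. Both enzymes that make hypusine on eIF5A were detected, Dhps at 15.1 and 10.7 TPM and Dohh at 35.0 and 31.8 TPM. All 7 genes for the diphthamide of eEF2 were detected too, from Dph6 at 2.63 and 2.64 TPM to Dph3 at 19.9 and 17.6 TPM.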

How the data were processed

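Total RNA was measured in 2 libraries of 1 group. How reads were aligned and quantified is not given in the sources used here, and the assembly is mm10, per the labels. The authors deposited expected counts (estimated counts per gene or transcript), TPM, FPKM and percent values (a transcript's share of its gene), named so per the file headers, and, per the file headers, other columns with credibility bounds of TPM.

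The table of annotation release M4 was used, with releases M2 and M3 as alternatives. GENCODE M21 gave symbols, biotypes and coordinates by identifier without version, and 42462 of 43346 genes matched. Detection needed 1 TPM in both libraries. Log2 TPM ratios used a pseudocount of 0.1. For the library comparison, expected counts were rounded, genes with at least 10 counts over both libraries were kept (15438), libraries were scaled by TMM in edgeR 4.0.16 (R 4.3.3), and a two-sided exact conditional binomial test was adjusted by Benjamini-Hochberg at 0.05; DESeq2 1.42.0 size factors were an alternative. With 1 group no dispersion test between groups exists, and intervals and floors (3 counts) cover counting error only, not the assignment of shared reads. The test was also run on counts simulated with counting error alone, for genes with at least 100 counts. That run cannot speak to spread between cultures, to shared reads or to genes with fewer counts. Shared words are 50-base words of annotated M21 transcripts. Promoter windows are from RefSeq; the motif search ran in Python 3.11.15, with pandas 2.3.3, numpy 2.4.6 and scipy 1.17.1, and figures used matplotlib 3.10.9.

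Members and lists were chosen with earlier results of these data known. Named were the highest and lowest member of each complex, paralog sets, members called at a ratio of 1.5 and members that moved over 1.5-fold across releases. Only some of the noncoding transcripts at 10% or more of a member in both libraries were named. The same holds for members split between coding forms. From the partner list, the genes called were named, and the highest and lowest genes of some groups. Other members were named to complete a complex.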

Additional observations from a re-analysis of the deposited data

How the results depend on the processing

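The number of detected members stayed within 1.5 times the main value of 56 in every alternative run (46 to 58), and the median TPM over all 61 members ranged from 32.9 to 41.7 when either replicate was left out. That median was 82.3 as FPKM, 153 with TPM rescaled to protein-coding genes and 28.6 with coding forms alone, an alternative chosen after seeing the data. Of members, 1 was called at a ratio of at least 2, 3 at 1.5, 51 with no ratio criterion and 0 with a minimum of 100 counts, where Eif4ebp3 was not tested (by counts alone 51 pass at an adjusted p under 0.05). Library totals, DESeq2 size factors, releases M2 and M3 and no filter each gave 1, beside 670 to 726 calls over all genes. Of all 15438 genes tested, 737 were called at a ratio of at least 2, 1685 at 1.5 and 7779 with no ratio criterion. With a minimum of 100 counts, 296 of 11711 genes were called. The median log2 TPM ratio was negative in each alternative, from -0.16 to -0.13. Noncoding forms at 10% or more were found in 16 members by TPM but in 6 by expected counts, and in 17 or 18 when a replicate was left out. By TPM the direction of Eif4a2 and Eif5b turned with coding forms alone, that of Eif5b with release M2, and those of Eif5b and Eif3i with TMM-scaled counts. No paired analysis was possible because the labels give 1 group only. With 2 libraries, 1 library decides each difference, and a difference within counting error was not detectable at this depth.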
